A study of Mus musculus with 12 samples.

Results

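The 47 genes described here encode the enzymes, membrane proteins and proton pump of the lysosome, and they were taken by gene symbol, from a list of lysosomal genes, out of the 23284 genes of the count tables. They fall into 10 cathepsins, 6 lipid enzymes and lipid carriers, 6 glycosidases, 5 sulfatases and other luminal proteins (with Tpp1 and Grn), 5 membrane proteins and 15 genes of the proton pump. All 47 were present in both tables and all 47 passed the filter on low counts in each comparison. RNA from the spleen and from the axillary lymph node was sequenced as poly(A) libraries in mice of 2 genotypes. Each of the 4 groups of tissue and genotype had 3 libraries. Mice of both genotypes lacked mouse apoE and mouse apoA-I (apoE/apoA-I double deficient, DKO), and the DKO/hA-I mice in addition overexpressed human apoA-I, the protein around which high density lipoprotein is built. All mice were 30 weeks old and ate a normal laboratory diet. The sources used here do not give the promoter of the human apoA-I transgene or the sex of the mice.

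Lysosomes are acidic organelles in which proteins, lipids, glycans and nucleic acids taken up by endocytosis, phagocytosis or autophagy are broken down. The vacuolar proton pump is made of a membrane sector (V0) and a cytosolic ATP-hydrolysing sector (V1). It acidifies the lumen so that cathepsins, lipases, glycosidases and sulfatases can work. Membrane proteins such as the LAMPs shield the limiting membrane, and other membrane proteins export the products. In macrophages, which carry many lysosomes, lysosomal acid lipase releases cholesterol from lipoprotein cholesteryl esters and Npc2 and Npc1 hand that cholesterol on, while the transcription factor TFEB and its relatives bind an E-box element, known as CLEAR, in front of many lysosomal genes.

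Total counts ran from 5911835 to 11950825 per library in lymph node and from 8966001 to 11237680 in spleen, and a floor of 3 counts stood at 0.251 to 0.507 CPM (CPM, with library sizes scaled by TMM over all 12 libraries). Such floors cover counting error only. Apoe and Apoa1 are targeted in both genotypes and do not test the labels. The processed pseudogene Rpl31-ps12 had 2094 counts over the 3 DKO nodes and 3 over the DKO/hA-I nodes, but 5 over the DKO spleens and 2162 over the DKO/hA-I spleens. Directions below are therefore read from the labels of each tissue, and exchanged labels in a tissue would reverse them there. The animal codes of the 3 DKO nodes share the middle number 75, whereas those of the DKO/hA-I nodes carry 76, 77 and 78. In lymph node, a difference between code numbers therefore cannot be told apart from one between genotypes. The spleens carry 55, 56 and 57, so in all comparisons of the tissues, code numbers cannot be told apart from tissues.

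The letters of the E-box were searched in the RefSeq promoter windows (250 bases before to 50 bases after each start, GRCm38.p6), because this is the sequence through which lysosomal genes are known to be controlled together. A window was matched for 38 of the 47 genes, and Ctsb, Ctsh, Asah1, Galns, Npc1, Atp6v1b2, Atp6v1c1, Atp6v1g1 and Atp6v1h are named only. CACGTG, searched on both strands, occurred in 13 of the 38 (34.2%), against 8.09% of all 27025 genes with a window and 11.4% of the 9967 such genes tested in lymph node. The longer TCACGTG, which contains it, occurred in 11 (28.9%), against 4.29% of all genes with a window and 6.68% of those tested in lymph node. The palindrome TCACGTGA, which contains both shorter motifs, occurred in 7 (18.4%), against 1.12% and 2.14%. The 6 stretches below lie upstream of the RefSeq start, are written 5′ to 3′ on the strand of the gene, and have CACGTG in capitals. They show enzymes (Ctsd, Gla), membrane proteins (Lamp1, Mcoln1) and subunits of both pump sectors (Atp6v0b, Atp6v1a).
Ctsd, chr7:142387895-142387950, minus strand: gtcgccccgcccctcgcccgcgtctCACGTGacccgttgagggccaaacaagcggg
Gla, chrX:134601169-134601255, minus strand: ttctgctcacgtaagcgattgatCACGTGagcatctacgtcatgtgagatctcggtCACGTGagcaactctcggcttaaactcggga
Lamp1, chr8:13159075-13159160, plus strand: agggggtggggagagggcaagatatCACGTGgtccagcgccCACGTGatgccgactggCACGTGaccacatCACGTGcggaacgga
Mcoln1, chr8:3500423-3500504, plus strand: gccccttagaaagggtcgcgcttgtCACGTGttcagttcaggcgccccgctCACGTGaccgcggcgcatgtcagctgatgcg
Atp6v0b, chr4:117887330-117887390, minus strand: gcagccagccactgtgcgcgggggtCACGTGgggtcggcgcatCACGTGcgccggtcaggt
Atp6v1a, chr16:44139360-44139415, minus strand: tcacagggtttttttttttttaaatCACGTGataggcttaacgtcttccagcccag
Lamp1 holds 4 copies in this stretch, Gla, Mcoln1 and Atp6v0b hold 2 each, and Ctsd and Atp6v1a hold 1 each. The Ctsd window has a further copy at position -245 from the RefSeq start, outside the printed stretch. Of the 5 lipid genes with a window, Lipa among them, 0 held CACGTG.

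In the axillary lymph node, 20 of the 47 lysosomal genes had higher levels in DKO mice than in those with human apoA-I and 0 had lower levels (edgeR quasi-likelihood test, Benjamini-Hochberg adjusted p under 0.05 over all genes tested). Over all 14012 genes tested, 6.87% were called in either direction, 3.95% higher and 2.92% lower. An unadjusted p under 0.05 was found for 37 of the 47 and for 25.1% of all genes tested. The log2 fold change was above 0 for 46 of the 47, with a median of 0.80, whereas the median over all genes tested was 0.01 and 51.6% of them lay above 0. All 3 DKO libraries lay above all 3 DKO/hA-I libraries for 34 of the 47 genes, including each of the 20 called, against 15.5% of all genes tested, and for 0 genes did they all lie below (15.1% of all genes, or 30.5% in either direction). DESeq2 called 32 higher and limma voom 14, where they called 14% and 4.99% of all genes, and both called 0 lower. Genes called by edgeR rose between 1.43-fold and 3.61-fold, and 12 of the 20 rose more than 2-fold. They included 5 of 10 cathepsins, 2 of 6 lipid genes, 3 of 6 glycosidases, 1 of 5 of the group with the sulfatases, 1 of 5 membrane proteins and 8 of 15 pump genes. Summed over the 47 genes, the level was 28630, 16881 and 33718 CPM in the DKO nodes and 14251, 11674 and 11216 CPM in the DKO/hA-I nodes. These sums amounted to 2.78%, 1.69% and 3.22% of all counts in DKO nodes and to 1.43%, 1.21% and 1.13% in DKO/hA-I nodes.

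The 3 DKO nodes were not alike in these genes. Among the 20 called genes, replicate 3 was the highest DKO library for 18 and replicate 2 was the lowest for 18. Replicate 2, which also had the fewest counts of the 12 libraries, lay close to the DKO/hA-I range for several genes. Without DKO replicate 2, edgeR called 36 of the 47 genes higher. Without DKO replicate 1 it called 3 (Gusb, Galns and Lamp2) and without DKO replicate 3 it called 1 (Gusb). Without DKO/hA-I replicate 1, 2 or 3 it called 2, 1 and 2 genes, of which Gusb was one each time and Galns the other where there were 2. Over all genes tested, 15.7% were called without DKO replicate 2, against 6.87% with no library left out. In the other omissions this share lay between 0.808% and 3.03%, so calls were lost over all genes as well. The count of positive log2 fold changes stayed between 45 and 46 of 47 under these omissions. The SD of the CPM was largest in DKO nodes for 41 of the 47 genes. The mean was also highest there for 44 of the 47, and an SD in CPM tends to grow with the level. The same count was not made over all genes.

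**Figure D1:**
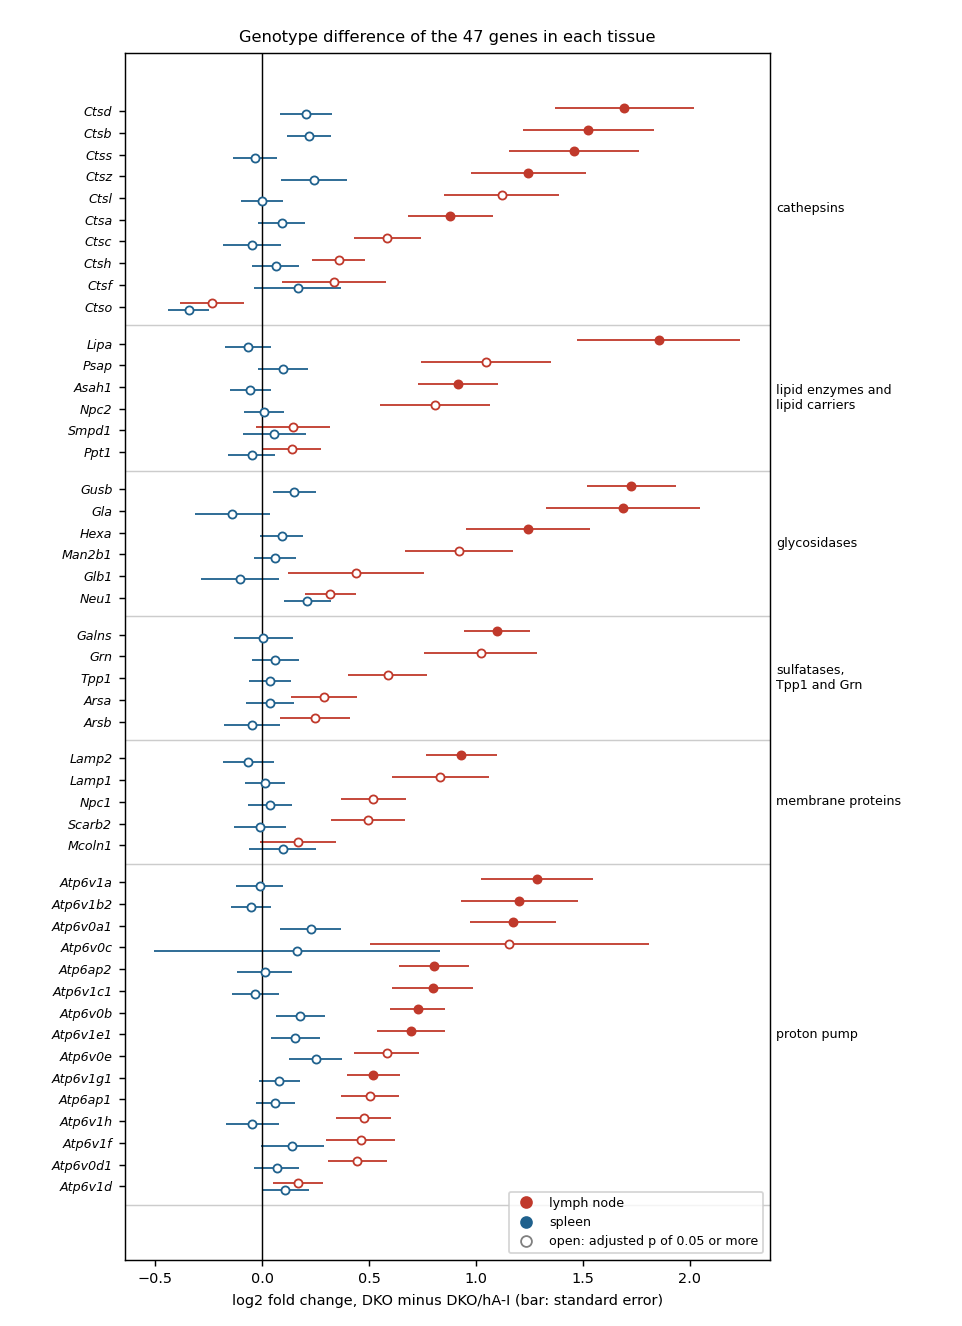
Log2 fold change, DKO minus DKO/hA-I, of each of the 47 genes in lymph node (red) and spleen (blue), with standard errors as bars and filled points for an adjusted p under 0.05. In lymph node 46 of 47 points lie right of 0 and 20 are filled, whereas in spleen all lie within 0.35 of 0 and none is filled.

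The cathepsins, proteases that work at acid pH, held some of the most abundant lysosomal transcripts. Ctsd, an aspartic protease, stood at 3553, 1682 and 3994 CPM in the DKO nodes and at 1165, 938 and 789 CPM in the DKO/hA-I nodes. The groups did not overlap, and the mean was 3076 ± 1227 CPM against 964 ± 189 CPM (SD, n = 3 libraries each), a log2 fold change of 1.69 ± 0.32 (SE, edgeR adjusted p = 0.0288). Ctsb, a cysteine protease, stood at 4290, 2513 and 5550 CPM in DKO and at 1819, 1358 and 1170 CPM in DKO/hA-I nodes. Its log2 fold change was 1.52 ± 0.31 (edgeR adjusted p = 0.031). Ctss, the cysteine protease that trims the invariant chain of MHC class II in antigen-presenting cells, stood at 1491, 950 and 2295 CPM against 621, 499 and 626 CPM. It rose by 1.46 ± 0.30 on the log2 scale (edgeR adjusted p = 0.0344), with DKO replicate 3 well above the other DKO nodes. Ctsz (1.24) and Ctsa (0.88), both carboxypeptidases, were the other called cathepsins.

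Ctsl, a cysteine endopeptidase, did not pass the threshold although its groups did not overlap. It stood at 612, 316 and 683 CPM in DKO nodes and at 256, 260 and 234 CPM in DKO/hA-I nodes, a log2 fold change of 1.12 ± 0.27 (edgeR adjusted p = 0.0501). Ctsc, which activates serine proteases of granules, had a log2 value of 0.59, Ctsh one of 0.36 and Ctsf one of 0.34. Ctso was the only one of the 47 genes with a negative value in lymph node, at 105, 93.2 and 109 CPM against 107, 115 and 144 CPM. Its log2 fold change of -0.23 ± 0.15 did not pass the threshold (edgeR adjusted p = 0.381). Ctsd, Ctsb and Ctss, like the other called cathepsins, lost their calls when DKO replicate 1, DKO replicate 3 or any one DKO/hA-I node was left out. Ctsd and Ctsb also lost theirs with replicate number as a block. Over all 12 alternatives the adjusted p of Ctsd ranged from 5.2e-06 to 0.121, that of Ctsb from 2.03e-05 to 0.131 and that of Ctss from 5.99e-05 to 0.142.

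**Figure D2:**
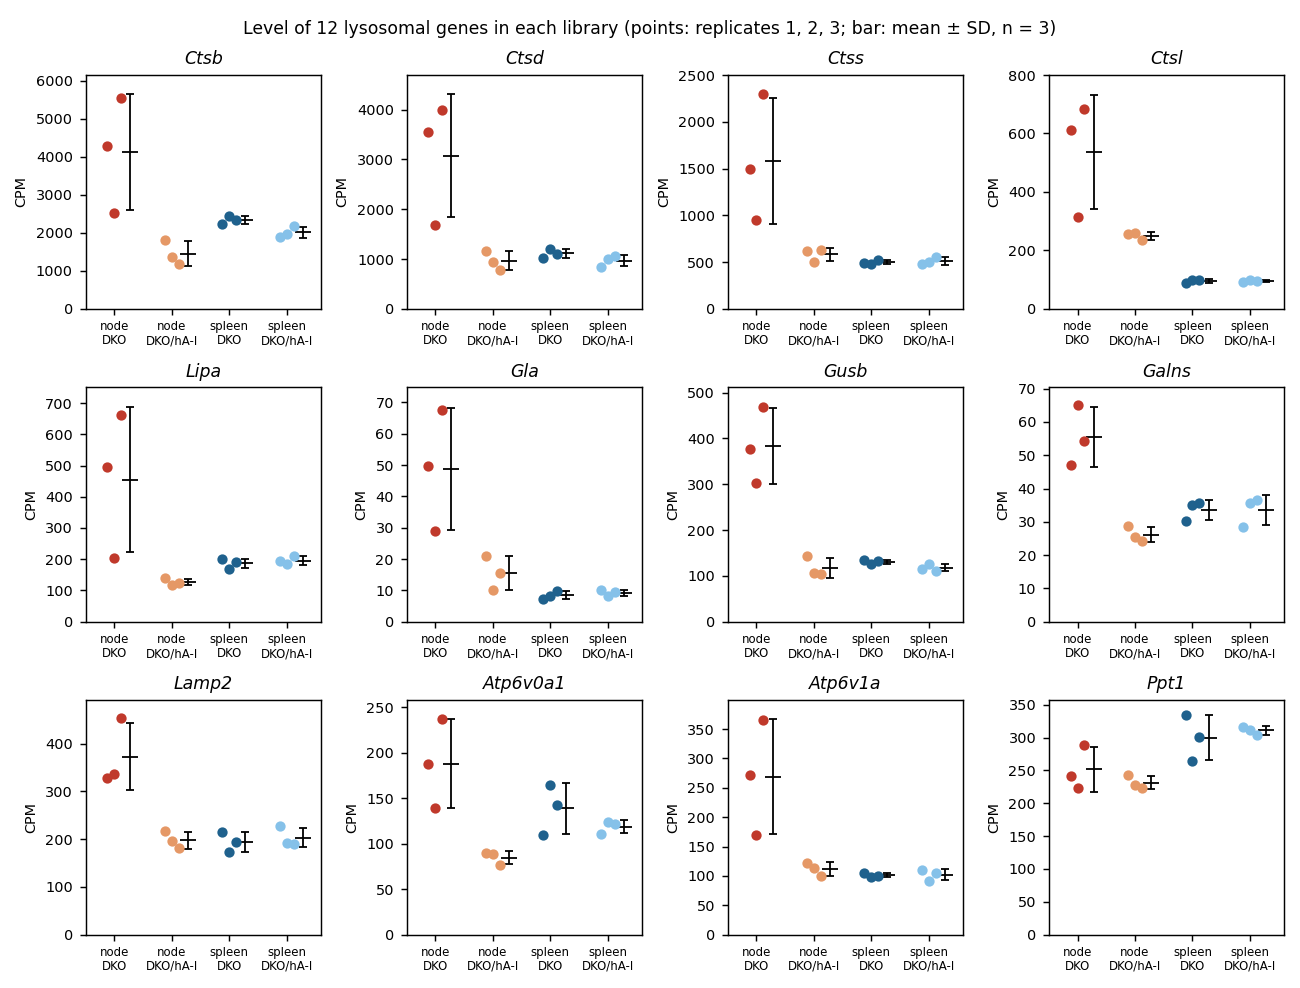
CPM of 12 of the genes in each of the 12 libraries, by group, with the mean ± SD of 3 libraries beside the points and each vertical axis starting at 0. The 3 DKO nodes lie above the DKO/hA-I nodes in 11 of the panels, DKO replicate 2 is the lowest of them in most, and in spleen the points of the genotypes lie close together.

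Among the lipid genes, Lipa showed the highest fold change of all 47. It encodes lysosomal acid lipase (chromosome 19, 34492318 to 34527474, minus strand, GENCODE vM21 on GRCm38), which hydrolyses cholesteryl esters and triglycerides. Lipa stood at 495, 205 and 663 CPM in DKO nodes and at 139, 118 and 125 CPM in DKO/hA-I nodes. The groups did not overlap, DKO replicate 2 lay nearest to the DKO/hA-I nodes, and the log2 fold change was 1.85 ± 0.38 (edgeR adjusted p = 0.0336). Asah1, acid ceramidase, stood at 220, 186 and 285 CPM against 136, 106 and 130 CPM and rose by 0.92 ± 0.19 (edgeR adjusted p = 0.0327). Psap, the precursor of the saposins that present sphingolipids to their hydrolases, was by far the highest transcript per length, with a mean over the 12 libraries of 1552 CPM per kb of exon against 650 for Ctsd, the next. It stood at 7883, 3814 and 8683 CPM in DKO nodes and at 3895, 3154 and 2938 CPM in DKO/hA-I nodes. DKO replicate 2 fell below DKO/hA-I replicate 1, and the log2 value of 1.05 ± 0.30 did not pass the threshold (edgeR adjusted p = 0.0823). Npc2, which binds cholesterol in the lumen, had a log2 value of 0.81, and the membrane transporter Npc1 one of 0.52, neither called. Smpd1 (acid sphingomyelinase) and Ppt1 (palmitoyl-protein thioesterase) had values of 0.14 and 0.14. Lipa and Asah1 were no longer called without DKO replicate 1, DKO replicate 3 or any one DKO/hA-I node. Lipa also lost its call with replicate number as a block. Over 12 alternatives the adjusted p of Lipa and Asah1 reached 0.136 each.

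The glycosidases remove sugars from glycoproteins, glycolipids and glycosaminoglycans. Gusb, beta-glucuronidase (chromosome 5, 129989011 to 130003049, minus strand), stood at 377, 303 and 468 CPM in DKO nodes and at 143, 106 and 103 CPM in DKO/hA-I nodes. The lowest DKO node stood well above the highest DKO/hA-I node, and the log2 fold change was 1.72 ± 0.21 (edgeR adjusted p = 0.00993). Its call held in all 12 alternatives, with adjusted p up to 0.0462. Gla, alpha-galactosidase A, which cleaves globotriaosylceramide, stood at 49.8, 28.9 and 67.6 CPM against 21, 9.97 and 15.4 CPM and rose by 1.69 ± 0.36 (edgeR adjusted p = 0.0373). Hexa, the alpha subunit of beta-hexosaminidase, stood at 365, 211 and 492 CPM against 177, 144 and 136 CPM and rose by 1.24 ± 0.29 (edgeR adjusted p = 0.0466). Both sets of groups were separate, again with DKO replicate 2 lowest. Man2b1 (alpha-mannosidase, 0.92), Glb1 (beta-galactosidase, 0.44) and Neu1 (sialidase, 0.32) were not called. For Glb1 the order of the DKO nodes differed, with replicate 2 the highest at 63.4 CPM and replicates 1 and 3 at 30.6 and 32.1 CPM. Gla and Hexa lost their calls without DKO replicate 1, DKO replicate 3 or any one DKO/hA-I node. Hexa also lost its call with limma voom and with replicate number as a block. The adjusted p of Gla and Hexa reached 0.128 and 0.165 over the alternatives.

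In the group with the sulfatases, Galns, which removes sulfate from keratan sulfate and chondroitin sulfate, was the called gene. It stood at 47.2, 65 and 54.4 CPM in DKO nodes and at 28.9, 25.3 and 24.4 CPM in DKO/hA-I nodes. The groups did not overlap, and here DKO replicate 2 was the highest library. The log2 fold change was 1.10 ± 0.16 (edgeR adjusted p = 0.0138), and the call was lost in 2 of 12 alternatives, when DKO replicate 3 or DKO/hA-I replicate 2 was left out (adjusted p up to 0.0684). Grn, the precursor of the granulins, had a log2 value of 1.02 (edgeR adjusted p = 0.0621) and Tpp1, tripeptidyl peptidase, one of 0.59, neither called. The sulfatases Arsa and Arsb had values of 0.29 and 0.25.

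Among the membrane proteins, Lamp2, needed for the fusion of autophagosomes with lysosomes and for chaperone-mediated autophagy, was called. It stood at 328, 336 and 453 CPM in DKO nodes and at 216, 196 and 181 CPM in DKO/hA-I nodes, without overlap, and rose by 0.93 ± 0.17 on the log2 scale (edgeR adjusted p = 0.0227). Its call was lost without DKO replicate 3, without each of the DKO/hA-I nodes and with replicate number as a block, with adjusted p up to 0.106 over the alternatives. Lamp1, the other abundant glycoprotein of this membrane, stood at 905, 587 and 1074 CPM against 557, 451 and 450 CPM. Its groups did not overlap either, but its log2 value of 0.83 was not called (edgeR adjusted p = 0.0712). Scarb2, the receptor that carries glucocerebrosidase to lysosomes, had a value of 0.50. The calcium channel Mcoln1, with 2 E-boxes in the stretch printed above, had a value of 0.17, and its groups overlapped at 53, 35.4 and 41.8 CPM against 40.4, 43.3 and 33.9 CPM.

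Of the 15 proton pump genes, 8 were called, comprising 2 of 5 V0 subunits, 5 of 8 V1 subunits and 1 of 2 accessory proteins. In V0, Atp6v0a1, the subunit that forms the proton channel with the proteolipid ring, stood at 187, 140 and 237 CPM in DKO nodes and at 89.1, 88.1 and 76.2 CPM in DKO/hA-I nodes. The groups were apart, and the log2 fold change was 1.17 ± 0.20 (edgeR adjusted p = 0.0202). Atp6v0b, of the proteolipid ring, stood at 148, 120 and 144 CPM against 90, 82.7 and 79.2 CPM and rose by 0.73 ± 0.13 (edgeR adjusted p = 0.0227). In V1, Atp6v1a, the catalytic subunit, stood at 272, 170 and 365 CPM against 122, 114 and 99.5 CPM and rose by 1.29 ± 0.26 (edgeR adjusted p = 0.0324). Its partner Atp6v1b2 (1.20), the subunit Atp6v1c1 (0.80), the stalk subunits Atp6v1e1 (0.70) and Atp6v1g1 (0.52) and the accessory protein Atp6ap2 (0.80), also known as the prorenin receptor, were called as well. Atp6v0e (0.58), Atp6ap1 (0.50), Atp6v1h (0.47), Atp6v1f (0.46), Atp6v0d1 (0.44) and Atp6v1d (0.17) were not called. All 15 log2 values were above 0, and the median was 0.70. Atp6v0a1, Atp6v0b and Atp6v1a lost their calls without DKO replicate 1, DKO replicate 3 or any one DKO/hA-I node, and with replicate number as a block. Their adjusted p reached 0.0836, 0.111 and 0.127 over the alternatives.

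The value of Atp6v0c, the main proteolipid of the ring, is uncertain. Its counts were scattered within every group, from 12.8 to 93 CPM over the 12 libraries, and its log2 value of 1.16 ± 0.65 was not called (edgeR adjusted p = 0.321). A processed pseudogene, Atp6v0c-ps2, is counted separately in the tables and was higher than the gene itself, at 359 ± 87.3 CPM in DKO nodes and 158 ± 13 CPM in DKO/hA-I nodes. It was called at a log2 fold change of 1.20 ± 0.19 (edgeR adjusted p = 0.0177). The counts of gene and pseudogene together came to 466, 286 and 492 CPM in DKO nodes and to 222, 160 and 169 CPM in DKO/hA-I nodes, which did not overlap. How reads were divided between them cannot be seen in the tables. Exons of 9 of the 47 genes overlap another gene in the tables (Ctsa, Ctsb, Glb1, Hexa, Ppt1, Grn, Lamp1, Atp6v1e1 and Atp6v1h). Reads there may be shared, since the sources used here give no strand setting for the counting.

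**Figure D3:**
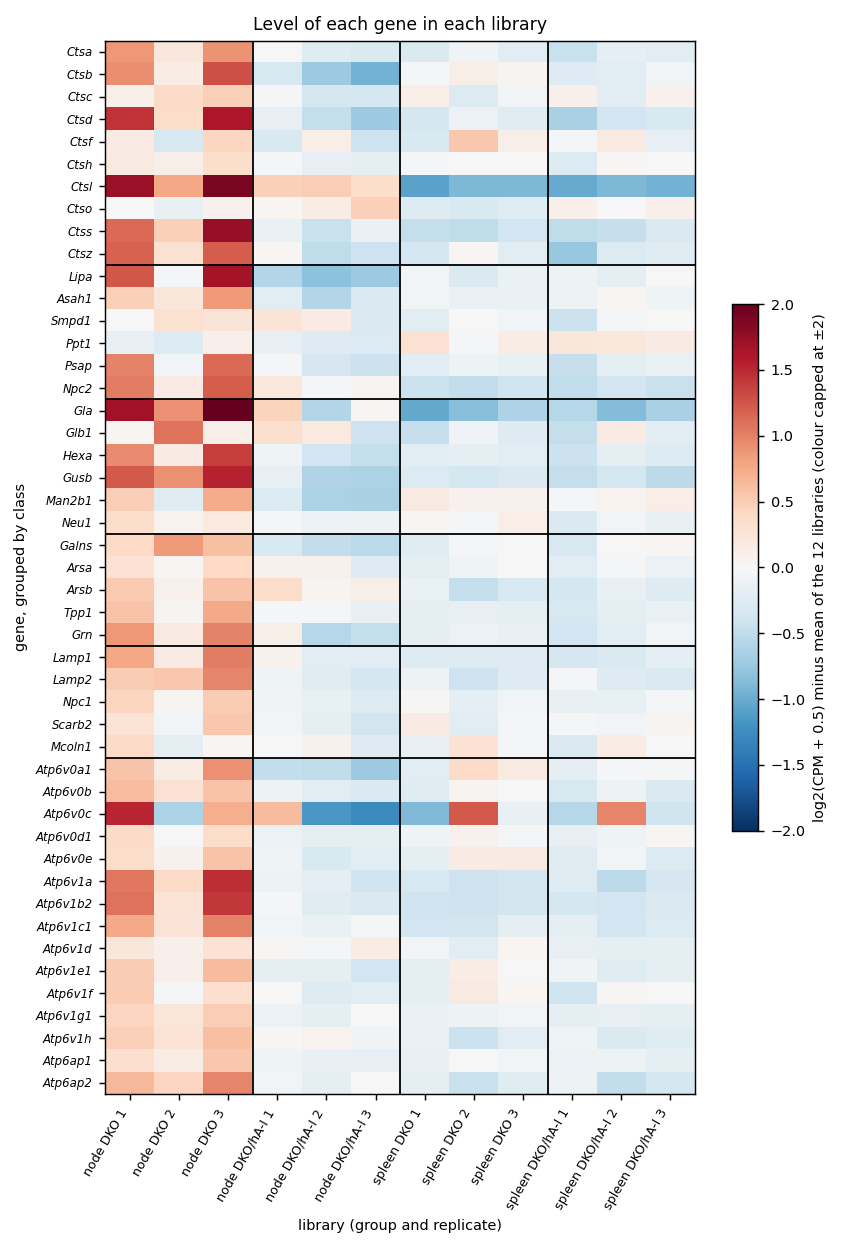
Colour gives the log2 of CPM plus 0.5, minus the mean of the 12 libraries, for each of the 47 genes (vertical, grouped by class) in each library (horizontal, grouped by tissue and genotype), with the colour scale ending at 2 in either direction. DKO nodes 1 and 3 are the reddest columns across nearly all classes, DKO node 2 lies between them and the DKO/hA-I nodes, and the spleen columns differ little apart from Atp6v0c.

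Per length, the mean over the 12 libraries ran from 1552 CPM per kb for Psap to 3.56 for Ctsf, with Ctsd (650), Ctss (583), Ctsb (409), Ctsz (339) and Lamp1 (207) after Psap. Across the 47 genes, which share libraries and are not independent replicates, the Spearman correlation of the log2 fold change in lymph node with this level was 0.41. The median log2 value in lymph node was 0.73 for the 13 genes with CACGTG in the promoter window, of which 5 were called, and 0.80 for the 25 without it, of which 9 were called. For TCACGTG the medians were 0.73 with it (5 of 11 called) and 0.80 without it (9 of 27 called). For TCACGTGA the order was the opposite, with 0.88 with it (4 of 7 called) and 0.73 without it (10 of 31 called).

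Lysosomal genes outside the 47 were described with further lists. Over all genes tested in lymph node, 3.95% were called higher in DKO and 2.92% lower. Of 28 other hydrolases, 10 were called higher in DKO nodes and 0 lower, with a median log2 fold change of 0.58. Lgmn, legumain, an asparaginyl endopeptidase, rose from 179 ± 44.9 to 675 ± 234 CPM (log2 1.94, edgeR adjusted p = 0.0162) and Galc, galactosylceramidase, from 20.1 ± 1.12 to 50 ± 16.4 CPM (log2 1.34, edgeR adjusted p = 0.0227). Of 22 other membrane proteins, 5 were called higher and 0 lower, among them the sialic acid exporter Slc17a5 (0.90), the metal transporter Slc11a1 (1.80) and Cd63 (1.43). The median of the 22 was 0.34, with 15 positive and 7 negative values, among the latter Laptm4b (-0.49, not called). Of 5 other pump genes that passed the filter, Tcirg1 (1.03) and Atp6v0d2 (3.77), isoforms of the a and d subunits known from osteoclasts and macrophages, were called. Atp6v0d2 stood at 188 ± 125 CPM in DKO nodes and 14 ± 2.29 CPM in DKO/hA-I nodes. Of 10 genes for the sorting of enzymes to lysosomes, 0 were called by edgeR. An unadjusted p under 0.05 was found for 4 of them and for 25.1% of all genes tested. The mannose 6-phosphate receptors M6pr and Igf2r had log2 values of 0.45 and 0.98 and Nagpa, which uncovers the mannose 6-phosphate tag, one of 0.49, while the sorting receptor Sort1 had one of -0.91, at 26.9 ± 4.12 CPM in DKO and 50.8 ± 17.6 CPM in DKO/hA-I nodes. Among the 4 transcription factors of the TFEB family, Mitf (1.43, edgeR adjusted p = 0.026) and Tfec (0.85, edgeR adjusted p = 0.0416) were called, whereas Tfeb itself stood at 61.3 ± 7.89 CPM against 62 ± 1.21 CPM and Tfe3 had a value of 0.42.

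Markers of cell types also differed between the genotypes in lymph node, some higher and some lower in DKO. Over all genes tested, 3.95% were called higher and 2.92% lower. The sum over 10 macrophage markers was 6822, 5784 and 8453 CPM in DKO nodes and 4591, 3916 and 3606 CPM in DKO/hA-I nodes. Of these 10, Mertk, Cd14, Lyz2 and C1qa were called higher, and Siglec1, a marker of sinus macrophages, had a log2 value of -0.73 that was not called. The sum over 7 T cell markers lay between 566 and 892 CPM in DKO nodes and between 1017 and 1157 CPM in DKO/hA-I nodes, and that over 6 B cell markers between 1648 and 2583 CPM and between 2738 and 3021 CPM. All 13 T and B cell markers had negative log2 values, and edgeR called 0 of them. An unadjusted p under 0.05 was found for 5 of the 7 T cell and 3 of the 6 B cell markers. It was found for 25.1% of all genes tested. All 6 adipocyte markers were called lower in DKO nodes, with sums of 12.2 to 35 CPM against 249.6 to 1052 CPM. Of 6 reticular stroma markers, 3 were called higher in DKO nodes (Pdpn 1.95, Pdgfrb 1.23 and Pdgfra 1.11) and 0 lower. The log2 values of 2 of the 6, Ccl19 and Ccl21a, were negative. Ccl19 stood at a mean of 106 CPM in DKO and 125 CPM in DKO/hA-I nodes, and Ccl21a at 186 and 257 CPM. The sums over the 6 markers overlapped, at 611 to 999.5 CPM against 508 to 636 CPM. Of the 5 lymphatic and high endothelial markers 1, Lyve1, was called lower (-0.80). Of 5 plasma cell markers, Sdc1 (2.10) was called higher, and of 5 tested neutrophil markers, Mmp9 (1.88) was, with list medians of 2.10 and 2.57. DKO replicate 2 had the highest sum of plasma cell markers of the 12 libraries (2203 CPM) and the highest sum of neutrophil markers of the 6 nodes (917 CPM). Its epithelial marker sum of 72.6 CPM came almost entirely from Epcam (72.4 CPM), with Krt5, Krt14 and Krt18 at 0. The part of these markers in the differences of the lysosomal genes was not tested. In tissue RNA, fewer cells of a type and less RNA per cell cannot be told apart, nor can their opposites.

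**Figure D4:**
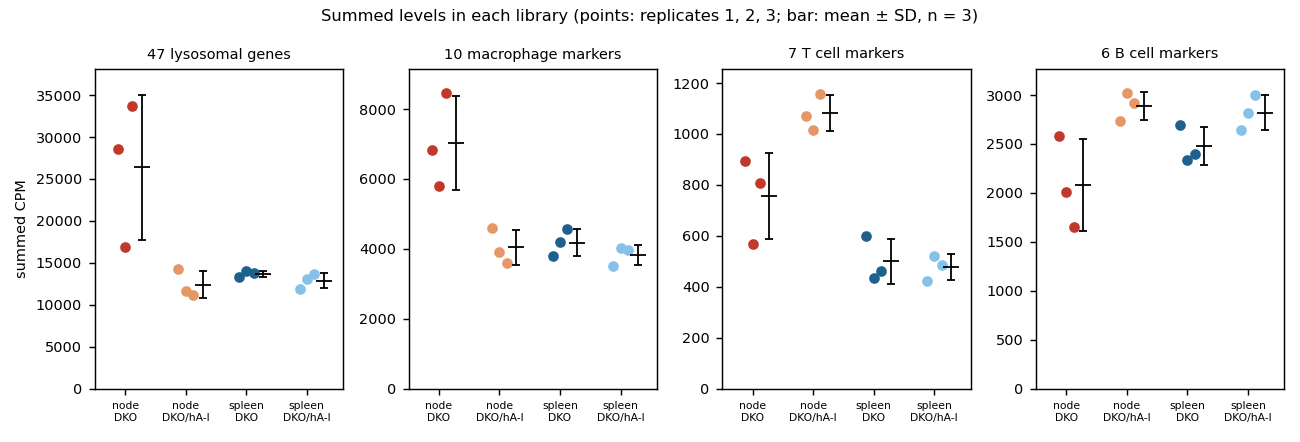
Summed CPM of the 47 lysosomal genes and of macrophage, T cell and B cell markers in each library, with the mean ± SD of 3 libraries beside the points and axes starting at 0. In lymph node the lysosomal and macrophage sums of the 3 DKO libraries lie above those of DKO/hA-I, while the T and B cell sums lie below, and in spleen the lysosomal sums run from 11851 to 14035 CPM.

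In the spleen, 0 of the 47 lysosomal genes differed between the genotypes by edgeR, where 0.00714% of the 14009 genes tested were called. One of the 47, Ctso, had an unadjusted p under 0.05 (4.4% of all genes tested), and DESeq2 and limma voom called 0 as well. The log2 fold change was above 0 for 32 of the 47 and the median was 0.06, beside 0.01 for all genes tested. No value exceeded 0.35 in size. All DKO spleens lay above all DKO/hA-I spleens for 3 genes (Ctsb, Neu1 and Atp6v1g1), where 4.25% of all genes did so, and below them for 1 (Ctso), where 6.26% did so. The summed level was 13291, 14035 and 13758 CPM in spleens labelled DKO and 11851, 13047 and 13619 CPM in those labelled DKO/hA-I.

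Ctso, a cysteine protease, stood at 86.3, 83.7 and 87.2 CPM in DKO and at 111, 105 and 111 CPM in DKO/hA-I spleens, a log2 value of -0.34 ± 0.09 (edgeR adjusted p = 0.929). Ctsb stood at 2225, 2438 and 2340 CPM against 1899, 1962 and 2169 CPM, with a log2 value of 0.22. The groups were apart for both genes, but by little in the case of Ctsb. The other values of lowest unadjusted p were those of Atp6v0e (0.25), Neu1 (0.21), Ctsd (0.20) and Atp6v0a1 (0.23). Apart from Atp6v0c, the 95% intervals of the 46 other genes reached no further than -0.56 and 0.62. For 38 of the 47 genes the upper bound in spleen lay below the value estimated in lymph node. This count leaves out the error of the lymph node value and is no test of the tissues, and the direct test below called 10 genes. With the animal code number as a block, edgeR called 3 genes in spleen, Ctsz and Atp6v0a1 higher and Ctso lower, where 3.68% of all genes were called. None of the other lysosomal lists had a called gene in spleen either.

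The genotype difference in lymph node was compared with that in spleen in one fit of the 12 libraries. It was higher in lymph node for 10 of the 47 genes and lower for 0, where 3.33% of the 14608 genes tested were called in either direction and 2.04% higher. All 47 values were positive, with a median of 0.77 on the log2 scale, against 0.00 for all genes tested, of which 49.9% were positive. The called genes were Ctsd, Ctss, Lipa, Asah1, Gla, Gusb, Galns, Lamp2, Atp6v1a and Atp6v1b2, with at least one from every class. For Lipa the genotypes differed by 1.85 in lymph node and by -0.07 in spleen, where it stood at 200, 170 and 190 CPM against 193, 184 and 210 CPM (difference 1.90 ± 0.42, edgeR adjusted p = 0.0283). For Gusb, at 134, 126 and 132 CPM against 116, 126 and 111 CPM in spleen, the difference of the tissues was 1.55 ± 0.23 (edgeR adjusted p = 0.00475). For Ctss it was 1.47 ± 0.34, for Galns 1.07 ± 0.21, for Lamp2 0.98 ± 0.21 and for Atp6v1a 1.28 ± 0.30. Without one library at a time, the number of called genes ran from 1, without DKO/hA-I node 2, DKO/hA-I spleen 2 or DKO/hA-I spleen 3, to 30, without DKO node 2. It was 2 without DKO spleen 2, DKO spleen 3 or DKO/hA-I spleen 1, 3 without DKO node 3, 4 without DKO spleen 1, 5 without DKO/hA-I node 3, 6 without DKO node 1 and 9 without DKO/hA-I node 1. Over all genes tested, 1.28%, 1.32% and 1.34% were called in the omissions that left 1 gene, and 7.82% without DKO node 2. Those that left 2 genes had 1.21%, 1.26% and 1.52%. The omissions that left 3, 4, 5, 6 and 9 genes had 1.5%, 2.77%, 3.17%, 3.53% and 2.48%. With no library left out the share was 3.33%. Gusb held its call in all 17 alternatives. The Spearman correlation of the 2 tissues' log2 fold changes across the 47 genes was 0.06.

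Lymph node and spleen were then compared directly, as the mean of the genotypes in each tissue. The tissues share no middle number of the animal codes, so a difference between code numbers cannot be told apart from this one. Of the 47 genes, 22 were higher in lymph node and 1 was lower, where 17.5% of the 14608 genes tested were higher and 17.9% lower. The median log2 difference was 0.28, beside 0.02 for all genes tested. All 6 nodes lay above all 6 spleens for 5 genes (Ctsl, Npc2, Arsb, Atp6v1c1 and Atp6v1h), as they did for 6.59% of all genes tested. For 0 of the 47 they all lay below, as for 8.98% of all genes (15.6% in either direction). Ctsl stood apart, at 234 to 683 CPM in nodes and 87.6 to 98.8 CPM in spleens, a log2 difference of 1.95 ± 0.15 (edgeR adjusted p = 6.97e-07). Gla was higher by 1.65 ± 0.22 (edgeR adjusted p = 6.75e-05), Ctss by 0.93, Npc2 by 0.91, Gusb by 0.77, Atp6ap2 by 0.62, Atp6v1c1 by 0.61, Arsb by 0.58, Lamp1 by 0.56, Lamp2 by 0.45 and Tpp1 by 0.40. Ppt1 was the gene called lower, with a log2 difference of -0.34 ± 0.09 (edgeR adjusted p = 0.00791). It stood at 224 to 289 CPM in nodes and 265 to 334 CPM in spleens, ranges that overlap.

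The tissues were also compared within each genotype, where the test of the difference between the comparisons is the one given above. Between nodes and spleens labelled DKO, 29 of the 47 genes were higher in lymph node and 0 lower, with a median of 0.67, where 22.8% of all genes tested were called in either direction. Between those labelled DKO/hA-I, 2 were higher and 1 lower, with a median of 0.00, where 25.7% of all genes were called. The 3 were Ctsl (1.40), Arsb (0.44) and Ppt1 (-0.42). In these libraries 24 of the 47 values were above 0, against 42 for the mean of the genotypes. The values of Lipa and Ctsb were -0.62 and -0.47, and those of Gusb and Lamp2 -0.00185 and -0.0359, none called. The mean level was highest in DKO nodes for 44 of the 47 genes and lowest in DKO/hA-I nodes for 23. The exceptions among the highest were Ctso in DKO/hA-I nodes, Ctsf in DKO spleens and Ppt1 in DKO/hA-I spleens. For each of these genes the values of the highest group overlapped those of another group.

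**Figure D5:**
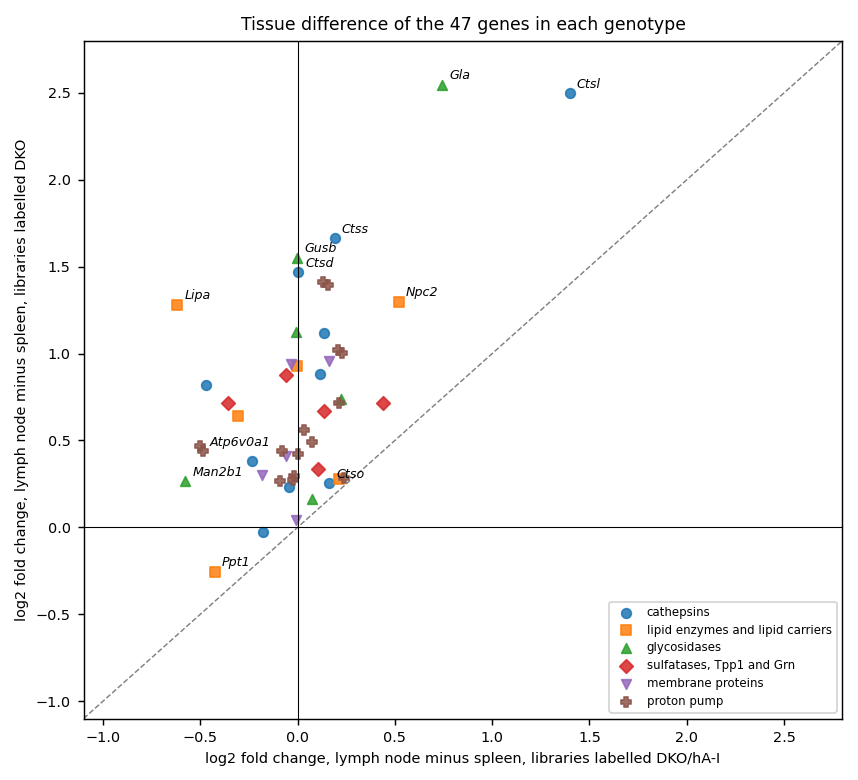
Log2 difference between lymph node and spleen of each of the 47 genes in libraries labelled DKO/hA-I (horizontal) and DKO (vertical), with symbols for the classes and a dashed line of equal values. All 47 points lie above the dashed line, and Ctsl, at 1.40 and 2.50, is the rightmost.

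The authors' deposited table for lymph node calls 784 of its 23284 genes between the genotypes (3.37%). Among them are 11 of the 47 genes in the authors' deposited table, namely Asah1, Atp6v0a1, Atp6v1a, Atp6v1b2, Ctsl, Ctss, Galns, Gla, Gusb, Hexa and Lipa. In the authors' deposited table for spleen, 8 genes are called and none of the 47 is among them.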

How the data were processed

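Poly(A) RNA was sequenced in 12 libraries. The deposited tables, one per tissue, hold raw read counts per gene and library, per the file headers, beside a yes or no call of the authors. The submitters' processing notes name Trimmomatic, Bowtie, TopHat, Cuffdiff and the build GRCm38 (mm10), while the sources used here give no counting program, annotation or strand setting. Columns were matched to libraries by the animal code in the labels.

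The quasi-likelihood test of edgeR 4.0.16 (R 4.3.3) was run on the counts (filterByExpr with a minimum count of 10 and a minimum total of 15, TMM, robust estimateDisp and glmQLFit, glmQLFTest), within each tissue for DKO minus DKO/hA-I and in one fit of all libraries for the tissue and its interaction. Genes with a Benjamini-Hochberg adjusted p under 0.05 over all genes tested were called. CPM are on one TMM scale, and CPM per kb use the summed exon length of GENCODE vM21. Nothing in the labels says that libraries come from separate cages or litters, so p-values reflect the spread over the sequenced libraries. The chi-square per degree of freedom between the counts of libraries of one group was 9.52 to 56.5, so none was a copy. Alternatives were DESeq2 1.42.0, DESeq2 size factors in edgeR, limma 3.58.1 voom, no filter, one library left out, blocks by replicate number or animal code, all 12 libraries in one fit and, added after seeing the data, the tissues compared within each genotype.

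The genes and lists were chosen with earlier results of these data known. Test values are given for up to 3 called genes per class in lymph node, 2 in the tissue comparison and 1 in the interaction, otherwise for the 6 of lowest unadjusted p. Test values of further genes were added after they were seen. In simulated counts, 77% of genes changed 2-fold and 100% of those changed 4-fold were recovered in the lymph node comparison. The shares were 97% and 100% in spleen, and 43% and 100% in the interaction. These counts were drawn for each gene alone from the trended dispersion, with no library that departs in many genes at once. The shares therefore do not carry over to genes with a larger spread or to the nodes with DKO replicate 2.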

Additional observations from a re-analysis of the deposited data

Results flagged for a closer look

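The genotype difference was larger in lymph node than in spleen for 10 of the 47 genes, by a direct test of the difference in one fit of the 12 libraries (edgeR adjusted p under 0.05). Over all 14608 genes tested, 3.33% were called in either direction and 2.04% higher. On the log2 scale, the lymph node value minus the spleen value was 1.90 for Lipa, 1.80 for Gla, 1.55 for Gusb, 1.47 for Ctsd and 1.47 for Ctss. It was 1.28 for Atp6v1a, 1.24 for Atp6v1b2, 1.07 for Galns, 0.98 for Lamp2 and 0.95 for Asah1. All 3 DKO nodes lay above all 3 DKO/hA-I nodes for each of these genes, as for 15.5% of all genes tested in lymph node. These genes are among the 20 called in lymph node, for each of which this held, so it adds no separate evidence. The direction in each tissue rests on its labels, and Rpl31-ps12 was high in DKO nodes but in DKO/hA-I spleens.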

How the results depend on the processing

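The number of the 47 genes called higher in DKO nodes was 20, where 6.87% of all genes tested were called in either direction. It was 32 with DESeq2 (14% of all genes), 33 with all 12 libraries in one fit (15.4%) and 21 with DESeq2 size factors (6.78%). With limma voom it was 14 (4.99%), without the filter 20 (5.29%) and with one library left out between 1 and 36 (0.808% to 15.7%). With replicate number as a block it was 7 (3.13%). Replicate numbers do not pair the libraries, since the deviations of same-numbered libraries within a tissue correlated at -0.14 to 0.12. In spleen, the animal code as a block gave 2 higher and 1 lower in place of 0, where 3.68% of all genes were called. All other settings gave 0 there. The number with a larger genotype difference in lymph node than in spleen was 10, where 3.33% of all genes were called. It was 19 with DESeq2 (6.67%), 4 with limma voom (1.73%) and 7 with the replicate block (2.05%). With one library left out it was between 1 and 30 (1.21% to 7.82%). In the tissue comparison, 22 were higher and 1 lower. In DKO libraries alone 0 were lower, in DKO/hA-I libraries alone 2 were higher. There 24 of the 47 values were positive in place of 42, and of the genes with test values in this comparison Gusb (-0.00185) and Lamp2 (-0.0359) turned sign. The causes were not tested. Depth sets little limit, since the floor of 3 counts lies far below the levels of all 47 genes, and 3 libraries a group limit the precision.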
